A study of Rattus norvegicus with 32 samples.

Results

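The homeostatic microglia genes described here are 9 genes that mark resident microglia at rest: Tmem119, P2ry12, Cx3cr1, Csf1r, Aif1, C1qa, C1qb, C1qc and Trem2. They are the rows with these gene names in a count table of 32883 genes, and all 9 were found. Each had enough counts to be tested, as did 15439 genes in all. Total RNA of 1 hippocampus per animal was sequenced for 32 rat pups labelled as wild type. Dams of the iron-deficient (ID) pups ate a purified diet with 3 to 6 ppm iron from gestational day 3 to postnatal day 7, and the iron content of the diet of the iron-sufficient (IS) dams is not stated in the labels. The insulin groups received insulin through the nose 2 times a day from postnatal day 8 to 21, and what the control groups received instead is not stated. The control groups hold 8 (IS) and 9 (ID) libraries, the insulin groups 7 (IS) and 8 (ID). The labels give collection on postnatal day 7 or 21 without assigning a day to a pup. The insulin-treated pups had to reach the later day, and for the control groups a difference of age and a difference of insulin cannot be told apart from the labels. Whether pups of a group shared a litter is not given either, so the p-values reflect only how these pups varied.

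Microglia are the resident macrophages of brain tissue. They enter the brain early in development from the yolk sac, depend on signalling through the receptor encoded by Csf1r, survey their surroundings with motile processes and take part in the removal of synapses and dying cells while the hippocampus matures. Under resting conditions they carry surface receptors that sense purines, chemokines and lipids. Several resting genes, among them P2ry12, Tmem119 and Cx3cr1, are known to be turned down in microglia that respond to injury or disease, whereas Trem2 is not. Several of the genes, among them Csf1r, Aif1, Trem2 and the C1q genes, are not specific to microglia in the brain and are also expressed by macrophages at its borders. In pieces of whole hippocampus, fewer cells of a type and less RNA per cell cannot be told apart.

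Total counts per library ranged from 19619345 to 28062630, and the 9 genes together received 5032 to 8280 of them. Tfrc, the transferrin receptor gene that checks the diet labels, was at 169 ± 19.7 CPM (counts scaled to a common library size) in ID control and 203 ± 17.4 CPM in ID insulin, against 117 ± 6.55 CPM in IS control and 127 ± 17.0 CPM in IS insulin (SD, n = 9, 8, 8 and 7). ID insulin replicate 3 stood apart from the rest of its group, at a chi-square of 46.1 to 102 per gene against at most 36.4 for any other pair of libraries within a group. The first number of the sample titles, whose meaning is not given, goes with the group everywhere except in ID control, which holds 5 libraries of number 69 and 4 of number 70. In ID control the chi-square per gene was 5.77 to 12.3 for pairs within number 70, 7.16 to 22.6 within 69 and 12.8 to 23.7 for pairs of 69 with 70. In the comparisons of groups, a difference between title numbers and a difference between groups cannot be told apart. Markers of neighbouring tissue varied widely: the summed level of 12 choroid plexus genes spanned 142 to 4031 CPM in IS control pups and 1547 to 6613 CPM in ID control pups, against 176 to 5268 and 479 to 7084 CPM in the IS and ID insulin groups.

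All 9 genes were detected in every library, and the lowest single value was 99 counts, for Trem2 in ID insulin. Of the markers of other myeloid cells, 12 border macrophage genes summed to between 58.5 and 113 CPM per library over the 4 groups. For 11 blood leukocyte genes this sum was 4.42 to 11.8 CPM, and 4 or 5 of the 11, depending on the group, had a median under 0.1 CPM. The 9 microglia genes summed to 279 ± 11.5 CPM in IS control pups and 289 ± 15.4 CPM in ID control pups, against 289 ± 25.2 and 270 ± 31.0 CPM in the IS and ID insulin groups (SD, n = 8, 9, 7 and 8). The summed level overlapped between all groups, and Csf1r contributed the most counts to it.

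**Figure D1:**
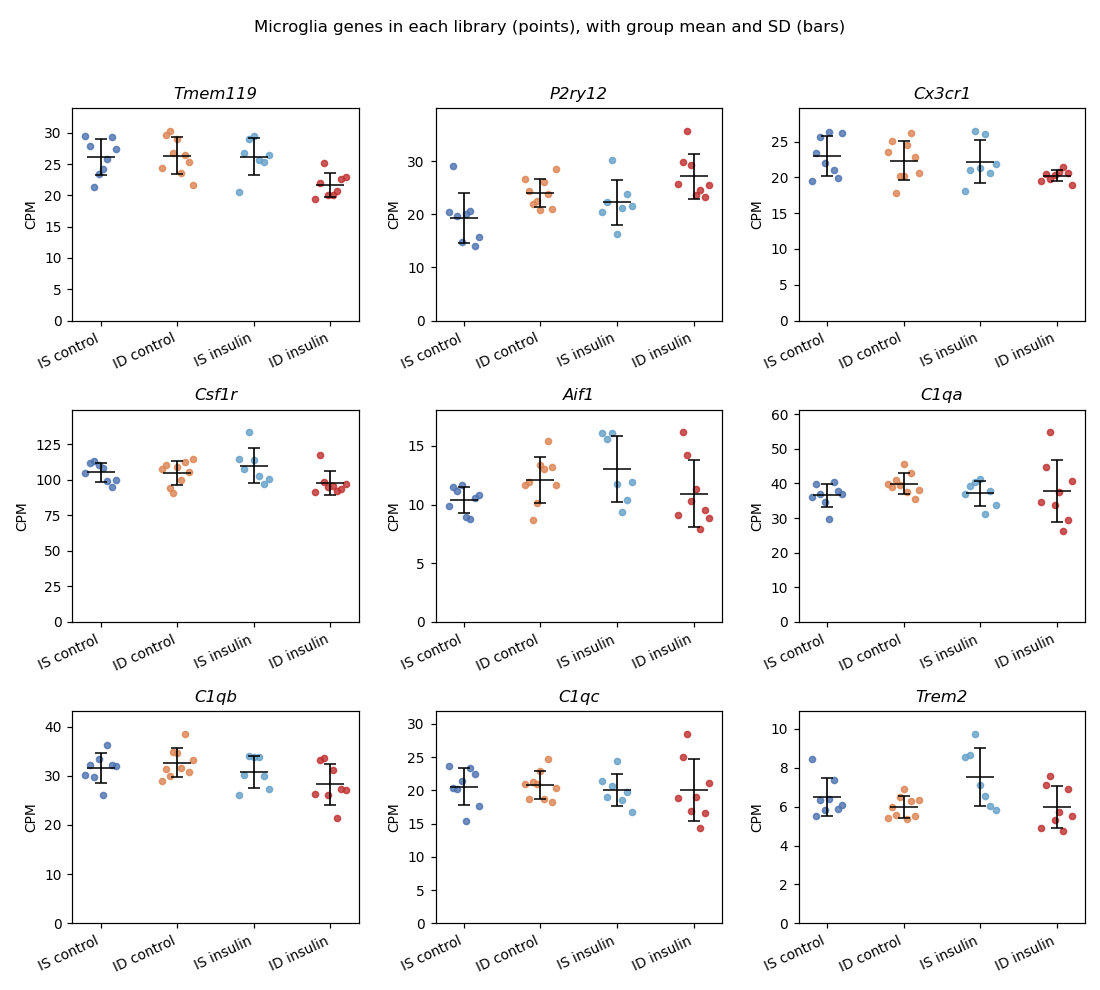
Level of each of the 9 microglia genes in CPM (y axes, each starting at 0) in the 4 groups (x axes); each point is 1 library, and bars give the group mean and SD. Tmem119 is lowest in ID insulin (mean 21.6 CPM) and P2ry12 highest there (27.2 CPM), and the ranges of all 9 genes overlap in part between groups.

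Tmem119 (ENSRNOG00000000700) encodes a transmembrane protein that is used to tell microglia from other macrophages. It was at nearly the same level in 3 of the groups. The lowest, median and highest library were at 21.4, 26.6 and 29.4 CPM in IS control, at 21.7, 26.4 and 30.3 CPM in ID control and at 20.5, 26.4 and 29.5 CPM in IS insulin. In ID insulin they were at 19.4, 21.3 and 25.2 CPM. Of the 8 ID insulin libraries, 4 lay below every ID control library, 4 below every IS control library and 3 below every IS insulin library, so the groups overlapped in part.

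Tmem119 fell with insulin in the iron-deficient pups, from 26.3 ± 2.91 to 21.6 ± 1.95 CPM (SD, n = 9 and 8; log2 fold change -0.28, SE 0.07, adjusted p = 0.0275 in edgeR's quasi-likelihood test). It was the single one of the 9 genes called in that comparison, 1 lower and 0 higher, where 3.82% of all tested genes were called, 1.86% lower and 1.96% higher. Compared with IS control, ID insulin was also lower (-0.27, SE 0.08, adjusted p = 0.0440), and compared with IS insulin it was at -0.28 (SE 0.08, adjusted p = 0.0526), which did not pass. In pups without iron deficiency the log2 fold change with insulin was 0.01 (SE 0.08, adjusted p = 0.981). The difference between these responses, the interaction of diet and insulin, was -0.29 (SE 0.11, adjusted p = 0.155; unadjusted p = 0.0111) and did not pass. Iron deficiency without insulin gave 0.02 (SE 0.07, adjusted p = 0.963).

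The decrease of Tmem119 against ID control was uneven over the title numbers. Its mean was 28.01 CPM in the 5 ID control libraries of number 69 and 24.3 CPM in the 4 of number 70, a log2 difference of -0.21 (SE 0.08, adjusted p = 0.475; unadjusted p = 0.0238 in edgeR's test of these 9 libraries). With ID control of number 69 alone the log2 fold change with insulin was -0.38 (adjusted p = 0.0251), and with number 70 alone it was -0.17 (adjusted p = 0.370). The call was also lost when any of ID control replicates 3 and 5 or ID insulin replicates 4 and 5 was left out, with values of -0.32 to -0.26 over all 32 fits that each lacked 1 library and adjusted p = 0.0160 to 0.0589. Without ID insulin replicate 3 the change was -0.32 (adjusted p = 0.0178). The call against IS control was lost without any of IS control replicates 1, 2, 6, 7 and 8 or ID insulin replicates 1, 2, 4 and 5, with values of -0.31 to -0.24 and adjusted p = 0.0201 to 0.0897 over the 32 fits. It was also lost with the compared groups alone (-0.27, adjusted p = 0.0593), without ID insulin replicates 3 and 5 (-0.29, adjusted p = 0.0687) and with the tissue covariates named next (-0.21, adjusted p = 0.637). Against IS insulin the adjusted p fell below the threshold without ID control replicate 1, 2, 3 or 9, IS control replicate 3, IS insulin replicate 1 or ID insulin replicate 3, and it ranged from 0.0210 to 0.0989. Libraries outside a comparison enter these fits because all groups share 1 estimate of the spread. Beside the change against ID control, in the same comparison, 6 of 9 tested genes of the meninges were lower and 4 of 8 red blood cell genes higher, led by Bgn, Aldh1a2 and Col1a1 and by Alas2, Slc4a1 and Hbb. Their summed levels were 465 to 1132 CPM in ID insulin against 1121 to 2255 CPM in ID control for the 10 meninges genes, and 1267 to 5532 against 1373 to 3231 CPM for the 8 red cell genes. With the means of these lists and the choroid plexus list as covariates, Tmem119 was at -0.27 (adjusted p = 0.203). With the mean of the Y-linked genes as covariate instead, Tmem119 was at -0.28 (adjusted p = 0.0302). The 4 Y-linked genes summed to 0.115 to 116 CPM in ID control (median 0.530) and to 0.0461 to 118 CPM in ID insulin (median 51.8). Both groups thus held libraries with and without Y-linked expression, and the number of each was not recorded.

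P2ry12 (ENSRNOG00000013902) encodes the purinergic receptor through which microglial processes sense ADP released by damaged or active cells. Its lowest, median and highest library were at 14.1, 19.9 and 29.1 CPM in IS control and at 20.8, 23.9 and 28.5 CPM in ID control. They were at 16.4, 21.5 and 30.1 CPM in IS insulin and at 23.2, 25.6 and 35.7 CPM in ID insulin. By group mean the order from low to high was IS control, IS insulin, ID control and ID insulin, and the ranges of all neighbours in this order overlapped. Of the 8 ID insulin libraries 3 lay above every IS control library, and IS control replicate 2, at 29.1 CPM, was the single IS control library above 20.6 CPM.

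P2ry12 was higher in ID insulin than in IS control, at 27.2 ± 4.21 against 19.3 ± 4.77 CPM (SD, n = 8 and 8; log2 fold change 0.49, SE 0.12, adjusted p = 0.0198). In this comparison 2 of the 9 genes were called, P2ry12 higher and Tmem119 lower, beside 3.35% of all tested genes, 2.07% higher and 1.28% lower. Without ID insulin replicate 3, which held the highest P2ry12 level, the change was 0.43 (adjusted p = 0.0497). With the compared groups alone it was 0.49 (adjusted p = 0.0600), without ID insulin replicates 3 and 5 0.45 (adjusted p = 0.0618), with the tissue list means as covariates 0.62 (adjusted p = 0.253), and without IS control replicate 7 it was 0.43 (adjusted p = 0.0531). None of the single steps passed: iron deficiency without insulin gave 0.31 (SE 0.12, adjusted p = 0.261), insulin in iron-deficient pups 0.18 (SE 0.11, adjusted p = 0.4), insulin in iron-sufficient pups 0.20 (SE 0.12, adjusted p = 0.421) and iron deficiency under insulin 0.29 (SE 0.12, adjusted p = 0.178). The interaction was -0.03 (SE 0.17, adjusted p = 0.955). In the RefSeq annotation P2ry12 overlaps the gene Med12l, and Cx3cr1, described below, overlaps LOC134480114, a long non-coding RNA gene. Whether counting used the strand is not stated, so reads of either overlap may be shared.

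The levels of these 2 genes can also be set against each other inside each library, where a ratio of 2 counts does not depend on library scaling. The ratio was chosen after the levels were seen to lie apart in ID insulin, so it restates them and is given without a test. A log2 ratio of 0 marks no biological level, because counts of 2 genes also depend on the lengths of their transcripts. The log2 ratio of P2ry12 to Tmem119 counts was above 0 in 8 of 8 ID insulin libraries, in 1 of 8 IS control, 3 of 9 ID control and 1 of 7 IS insulin libraries. Its lowest, median and highest values were 0.03, 0.33 and 0.55 in ID insulin, against -1.05, -0.43 and 0.06 in IS control, -0.48, -0.26 and 0.39 in ID control, and -0.85, -0.26 and 0.05 in IS insulin. Of the 8 ID insulin libraries 7 lay above all of IS control, 7 above all of IS insulin and 4 above all of ID control.

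**Figure D2:**
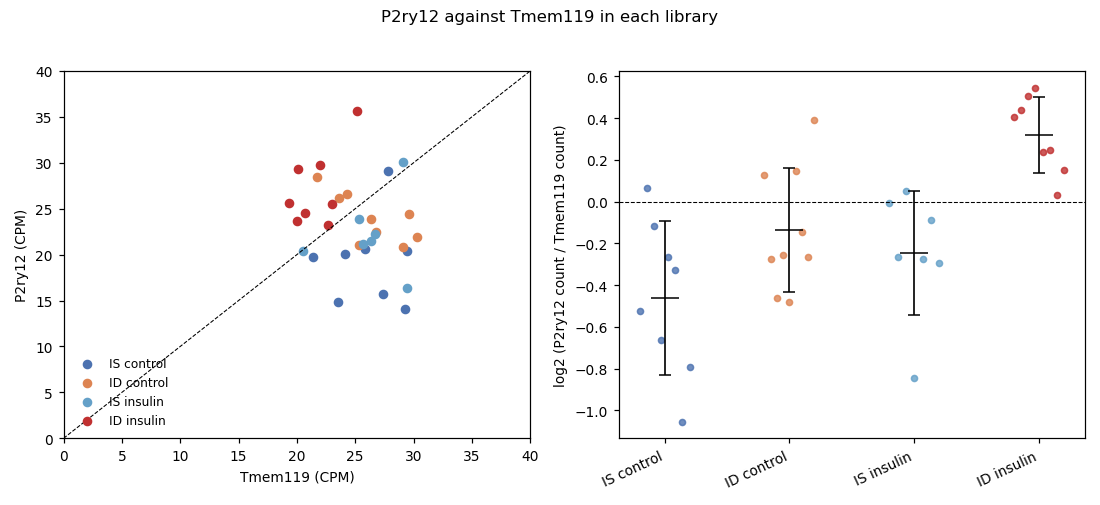
Left, P2ry12 against Tmem119 in CPM, 1 point per library, with a dashed line where both are equal; right, the log2 ratio of P2ry12 to Tmem119 counts by group, with mean and SD as bars. All 8 ID insulin libraries have a log2 ratio above 0, a line that marks no biological level, and ID control replicates reach into their range.

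Cx3cr1 (ENSRNOG00000018509) encodes the receptor for fractalkine, the chemokine made by neurons. It was at 23.0 ± 2.78 CPM in IS control pups and 22.3 ± 2.75 CPM in ID control pups, against 22.2 ± 3.03 and 20.2 ± 0.784 CPM in the IS and ID insulin groups (SD, n = 8, 9, 7 and 8). The ID insulin libraries lay close together, between 18.97 and 21.5 CPM, inside the range of each other group except that 2 of the 8 were below all of IS control. Their spread of 3.88% of the mean was about the 4.55% that counting alone gives at this depth, against 12.1 to 13.6% in the 3 other groups. The widest of the 6 contrasts was ID insulin against IS control, at -0.19 (SE 0.08, adjusted p = 0.164), so none was called. Its ligand gene Cx3cl1 was at 632 ± 115 CPM in ID insulin against 699 ± 53.2 CPM in ID control (log2 fold change -0.14, adjusted p = 0.287).

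Csf1r (ENSRNOG00000018414) encodes the tyrosine kinase receptor on which survival of microglia depends. Its lowest, median and highest library were at 95.1, 107 and 113 CPM in IS control pups and 90.5, 108 and 115 CPM in ID control pups, against 97.2, 108 and 134 CPM in the IS insulin group and 91.6, 95.5 and 118 CPM in the ID insulin group. In ID insulin, 7 libraries lay between 91.6 and 98.5 CPM and replicate 2 at 118 CPM. ID insulin against IS insulin gave -0.17 (SE 0.06, adjusted p = 0.109). Without ID insulin replicate 2 it was -0.22 (adjusted p = 0.0418), and without IS insulin replicate 3 it was -0.12 (adjusted p = 0.256). Of the 32 fits that each lacked 1 library, 1 passed. The other contrasts spanned -0.17 to 0.06 with adjusted p = 0.305 to 0.986. The genes for its ligands, Csf1 (16.3 ± 1.16 against 15.2 ± 2.21 CPM, adjusted p = 0.478) and Il34 (44.5 ± 2.63 against 48.2 ± 6.05 CPM, adjusted p = 0.285), were not called between ID insulin and ID control.

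Myeloid genes are known targets of the transcription factor PU.1, and the promoter of Csf1r is a textbook example, so its sequence is shown. It is the stretch of 250 bases before the RefSeq gene start in build GRCr8, chr18:56834129-56834378, plus strand. Capitals mark the letters GAGGAA, 1 form of the core bound by PU.1, on either strand. Other forms of this core were not searched and are not marked.
Csf1r: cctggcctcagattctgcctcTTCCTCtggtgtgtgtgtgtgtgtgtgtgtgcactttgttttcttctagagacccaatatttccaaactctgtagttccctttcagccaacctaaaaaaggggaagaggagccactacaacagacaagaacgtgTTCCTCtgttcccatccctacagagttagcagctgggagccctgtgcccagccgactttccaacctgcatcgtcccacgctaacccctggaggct
These letters occur 2 times here. Among 33469 rat promoters of the same length 23.3% hold them on at least 1 strand, so a match is a description and not a binding site.

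Aif1 (ENSRNOG00000000853) encodes the calcium-binding protein IBA1, the usual antibody target for microglia and macrophages. It was at 10.4 ± 1.099 CPM in IS control pups and 12.1 ± 1.97 CPM in ID control pups, against 13.04 ± 2.84 and 10.9 ± 2.86 CPM in the IS and ID insulin groups (SD, n = 8, 9, 7 and 8). Of the 9 ID control libraries 7, and of the 7 IS insulin libraries 5, lay above every IS control library. These contrasts gave 0.22 (SE 0.13, adjusted p = 0.524) and 0.31 (SE 0.14, adjusted p = 0.242), so neither passed. Aif1 had the widest interaction of the 9 genes, at -0.47 (SE 0.19, adjusted p = 0.183; unadjusted p = 0.0169). In ID insulin its values spread from 7.90 to 16.2 CPM, a wider range than in IS control, where they lay between 8.80 and 11.6 CPM.

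C1qa (ENSRNOG00000012807), C1qb (ENSRNOG00000012749) and C1qc (ENSRNOG00000012804) encode the 3 chains of C1q, the recognition protein of the classical complement pathway, which in the developing brain is made mainly by microglia and tags synapses. The genes lie beside each other on rat chromosome 5. C1qa was at 36.5 ± 3.33 CPM in IS control pups and 39.9 ± 3.05 CPM in ID control pups, against 37.2 ± 3.64 and 37.7 ± 9.01 CPM in the IS and ID insulin groups (SD, n = 8, 9, 7 and 8). C1qc was at 20.6 ± 2.83, 20.8 ± 2.11, 20.1 ± 2.44 and 20.1 ± 4.70 CPM in the same order of groups. Neither gene was called in any of the 6 contrasts, where C1qa spanned log2 fold changes of -0.11 to 0.13 and C1qc -0.06 to 0.02.

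C1qb had its lowest level in ID insulin, at 21.3, 27.2 and 33.6 CPM for the lowest, median and highest library, against 29.03, 31.6 and 38.6 CPM in ID control. Of the 8 ID insulin libraries 5 lay below every ID control library. The log2 fold change was -0.21 (SE 0.08, adjusted p = 0.119), which did not pass. In limma with voom and sample quality weights it was -0.25 (adjusted p = 0.0401), and without ID insulin replicate 3 it was -0.25 (adjusted p = 0.0619). Over the 32 fits that each lacked 1 library it was -0.25 to -0.16 (adjusted p = 0.0619 to 0.207). With the tissue list means as covariates it was -0.24 (adjusted p = 0.278).

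Within ID insulin the C1q genes spread more than in the other groups. The standard deviation of C1qa was 23.9% of its mean in ID insulin and 7.64 to 9.78% in the 3 other groups, and that of C1qc was 23.4% against 10.2 to 13.7%. Replicate 3, the library that stood apart as a whole, was highest in both genes, at 54.8 and 28.5 CPM, and replicate 6 was lowest, at 26.4 and 14.3 CPM. The chains rose and fell together from library to library. After each group's mean was taken off, Pearson's r over the 32 libraries was 0.87 between C1qa and C1qc (Spearman's rho 0.81; permutation p = 1e-05 for both, the smallest that 100000 permutations within groups can give). It was 0.71 between C1qb and C1qc (rho 0.59, permutation p = 9e-05 and 0.00137) and 0.68 between C1qa and C1qb (rho 0.63, permutation p = 2.9e-04 and 6.8e-04). Without the 2 libraries farthest from the median of the first gene of each pair, r was 0.80, 0.59 and 0.53. These values share library depth and the tissue composition of each sample.

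The promoters of C1qa and C1qb are shown because these genes moved together across libraries. Each is the stretch of 250 bases before the RefSeq gene start in build GRCr8, at chr5:154419934-154420183 and chr5:154407828-154408077, both on the minus strand and written 5′ to 3′, with capitals for GAGGAA on either strand.
C1qa: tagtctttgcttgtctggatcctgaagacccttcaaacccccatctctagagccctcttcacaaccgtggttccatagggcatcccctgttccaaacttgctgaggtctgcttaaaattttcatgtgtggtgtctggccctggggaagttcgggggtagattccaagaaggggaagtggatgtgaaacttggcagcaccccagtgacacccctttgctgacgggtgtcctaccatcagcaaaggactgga
C1qb: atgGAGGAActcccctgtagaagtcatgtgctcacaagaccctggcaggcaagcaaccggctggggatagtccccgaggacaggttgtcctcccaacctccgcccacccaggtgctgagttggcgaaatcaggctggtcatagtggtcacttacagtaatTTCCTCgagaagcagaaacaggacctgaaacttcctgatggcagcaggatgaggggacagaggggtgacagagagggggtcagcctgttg
The letters GAGGAA occur 2 times before C1qb, starting 247 and 90 bases before the gene start, and they are not in the C1qa window. Other forms of the PU.1 core were not searched, so the C1qa window is not read as lacking one. In all, 5 of the 9 genes matched a promoter of the RefSeq table by symbol (Cx3cr1, Csf1r, C1qa, C1qb and Trem2), and 3 of the 5 hold GAGGAA. The composite of an ETS and an IRF factor was in 0 of the 5 and in 2.5% of all promoters. A loose form of the MEF2 motif, with any base allowed at its middle positions, was in 1 of the 5, that of Cx3cr1, and in 3.4% of all. The Cx3cr1 match holds a G at these positions and is not read as a MEF2 core. The 3 motifs were searched on both strands.

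Trem2 (ENSRNOG00000013578) encodes a lipid-sensing receptor that signals through the adaptor TYROBP and is needed for the switch of microglia to a disease-associated state. It had the fewest counts of the 9 genes, 99 to 211 per library. Its lowest, median and highest library were at 5.52, 6.22 and 8.47 CPM in IS control pups and 5.35, 5.97 and 6.90 CPM in ID control pups, against 5.84, 7.11 and 9.75 CPM in the IS insulin group and 4.73, 5.61 and 7.55 CPM in the ID insulin group. Of the 8 ID insulin libraries 5 lay below every IS insulin library, with a log2 fold change of -0.33 (SE 0.11, adjusted p = 0.0991; unadjusted p = 0.00673) that did not pass. Without ID insulin replicate 3 it was -0.38 (adjusted p = 0.0480) and was called, and without IS insulin replicate 3 it was -0.26 (adjusted p = 0.212). Over the 32 fits that each lacked 1 library the adjusted p was 0.0480 to 0.212, and 1 of them passed. The adaptor gene Tyrobp was at 7.16 ± 1.63 CPM in ID insulin and 7.41 ± 1.60 CPM in IS insulin (log2 fold change -0.05, adjusted p = 0.858).

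**Figure D3:**
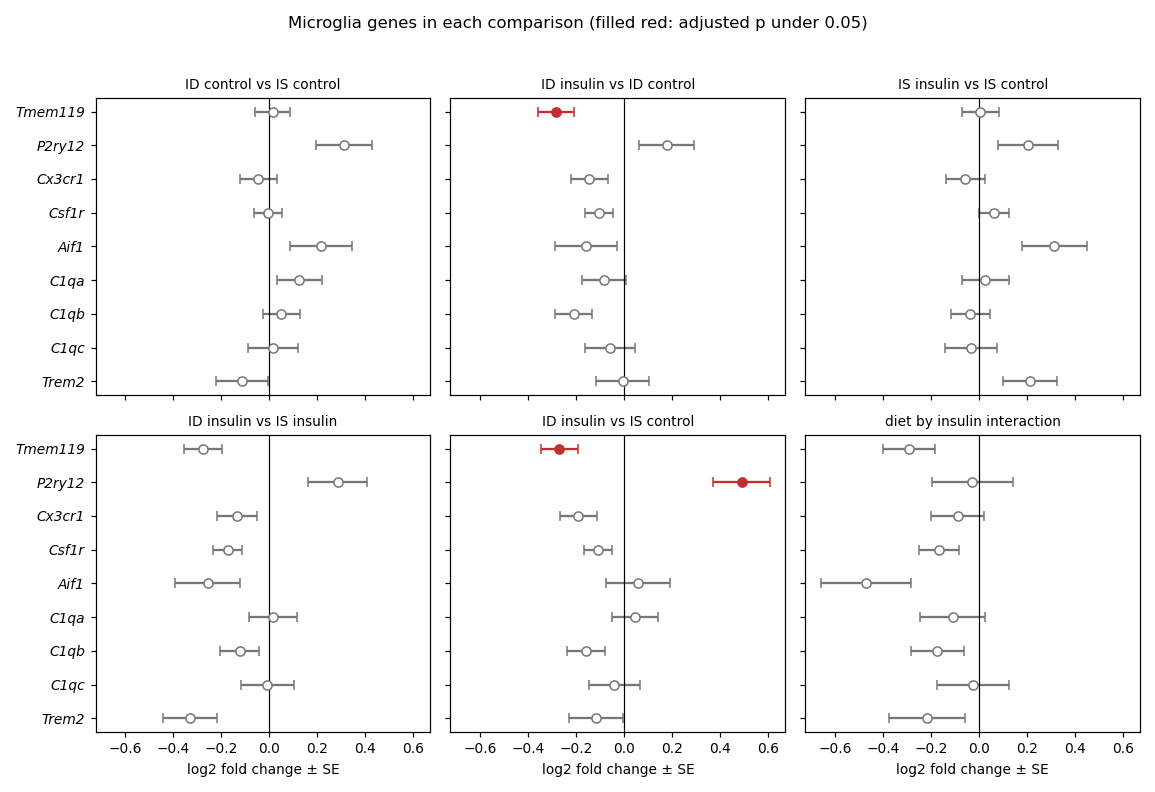
Log2 fold change of the 9 genes (points) with its SE (bars) in 5 comparisons of groups and in the interaction of diet and insulin; filled red points have an adjusted p under 0.05. Tmem119 is called in ID insulin against ID control (-0.28) and against IS control (-0.27), and P2ry12 against IS control (0.49).

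As a list, the 9 genes showed a median log2 fold change of 0.02 in ID control against IS control, 0.03 in IS insulin against IS control, -0.10 in ID insulin against ID control, -0.13 in ID insulin against IS insulin and -0.11 in ID insulin against IS control. The medians over all tested genes were 0.01, 0.01, 0.00, -0.00 and 0.01 in the same order. All comparisons with ID insulin share its 8 libraries, so their values are not independent of each other. Values below 0 were found for 8 of the 9 genes in ID insulin against ID control, for 7 against IS insulin and for 6 against IS control, where 48.8%, 50.2% and 46.4% of all tested genes were below 0. Of the 8, Trem2 was at -0.00 and took either sign over the alternatives (-0.06 to 0.06), and Aif1, C1qa and C1qc each turned positive under 1 alternative (up to 0.00, 0.01 and 0.05). In the interaction all 9 were below 0 (median -0.17), as were 52.8% of all genes (median -0.01). Under some alternatives P2ry12 (up to 0.06), C1qc (up to 0.16) and C1qa (up to 0.04) were above 0. Of the 9, 0 were called, where 0.939% of all tested genes were called. At an unadjusted p under 0.05 there were 2 of the 9, Tmem119 and Aif1, where 17.1% of all genes reached that level, and DESeq2 and limma voom called 0.

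In ID control against IS control 0 of the 9 genes were called in edgeR, DESeq2 and limma voom, where edgeR called 0.291% of all tested genes. P2ry12 alone had an unadjusted p under 0.05 there, a level that 11.9% of all genes reached. In IS insulin against IS control 0 were called by the same 3 tools, where edgeR called 0.123% of all genes, and Aif1 alone had an unadjusted p under 0.05, which 16.3% of all genes had. In ID insulin against IS insulin edgeR called 0 of the 9, beside 2.45% of all genes, and DESeq2 and limma voom each called 1, Tmem119. At an unadjusted p under 0.05 there were 4, Tmem119, P2ry12, Csf1r and Trem2, where 20.1% of all genes reached that level. Between title numbers 70 and 69 within ID control 0 of the 9 were called in edgeR and in DESeq2, where edgeR called 0.22% of all genes. Tmem119 was the single one of the 9 with an unadjusted p under 0.05 there. The share of all genes at that level was not recorded for these libraries, so nothing is read from this count.

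The 9 genes did not vary as 1 unit between libraries of a group. Of the 36 pairs, 29 had a positive r after the group means were taken off (range -0.36 to 0.87, median 0.31), and after Benjamini-Hochberg adjustment over the 36 the permutation p passed for 12 pairs by Pearson's r and for 5 by Spearman's rho. The 5 were the C1q pairs, Csf1r with Aif1 and Tmem119 with C1qa. The C1q genes, Trem2, Aif1 and Csf1r held most of the higher values, among them Csf1r with Aif1 at r = 0.68 (rho 0.67, adjusted p = 9e-04 by permutation). Cx3cr1 and C1qc were the pair with the lowest value, r = -0.36 (adjusted permutation p = 0.0492; r = -0.37 without the 2 farthest libraries), where rho was -0.44 and did not pass (adjusted permutation p = 0.0572). Tmem119 and P2ry12 were at r = -0.01 (rho -0.09, permutation p = 0.976 and 0.636). Within groups their r was -0.72 in ID control and 0.52 in ID insulin, 0.03 in IS control and 0.11 in IS insulin.

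**Figure D4:**
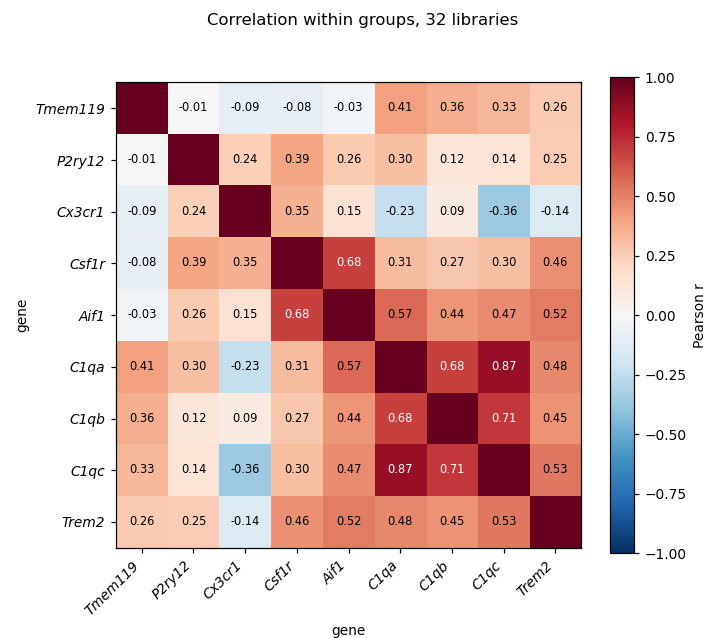
Pearson's r between each pair of the 9 genes over 32 libraries, on log2 CPM with each group's mean taken off; red is positive and blue negative. The C1q genes form a block with r of 0.68 to 0.87, and Cx3cr1 has values from -0.36 to 0.35.

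The genes that followed the mean of the 9 most closely within groups, among 11990 with a symbol that is not a provisional clone or locus name and, on average, a log2 CPM of 1 or more, were named by rank of Pearson's r over the 32 libraries. They were Laptm5 (r = 0.85, rho 0.78), a lysosomal protein gene of blood-derived and microglial cells, Use1 (0.80), Apoe (0.79), the lipoprotein gene whose product binds TREM2, Ssr4 (0.79), Nkain4 (0.77), Pla2g16 (0.77), Cst3 (0.77), which encodes the secreted protease inhibitor cystatin C, the ribosomal protein genes Rps15 (0.76) and Rpl13 (0.76), and Tst (0.76). Without the 2 libraries farthest from the median, r for these 10 was 0.63 to 0.83. They were picked for their r, so no p is given. Laptm5, Apoe and Cst3 also belong to the gene lists described next, and the other 7 are on none of them.

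Other genes of microglia were examined as lists, whose counts of 0 to 3 called genes in ID insulin against ID control stand beside the 3.82% called among all tested genes. A count of 1 of 20 or 1 of 15 is near that share. Calls against IS control stand beside 3.35% of all tested genes, calls against IS insulin beside 2.45% and calls in the interaction beside 0.939%. Single calls there are not read as results about a list. Of 16 tested genes of resting microglia outside the 9, 2 were lower and 0 higher in ID insulin than in ID control (median log2 fold change -0.02): Slc2a5, the fructose transporter gene (4.61 ± 1.01 against 6.76 ± 1.79 CPM, -0.57, adjusted p = 0.0165), and Olfml3 (7.04 ± 1.39 against 10.1 ± 2.03 CPM, -0.52, adjusted p = 0.0416). Slc2a5 was also lower than in IS control (-0.55, adjusted p = 0.0262). Ctss, which encodes the lysosomal protease cathepsin S, was lower in ID insulin than in IS insulin, at 99.9 ± 14.9 against 132 ± 14.6 CPM (-0.40, adjusted p = 0.00448). P2ry13, Gpr34 and Sall1, the last a transcription factor gene of microglial identity, were not called in any comparison of groups.

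Of 20 genes of myeloid lineage and signalling 1 was lower in ID insulin than in ID control, Arhgdib (-0.39, adjusted p = 0.00697), and 0 were higher (median -0.07). Arhgdib was also the single gene of the microglia and myeloid lists called in the interaction (-0.51, adjusted p = 0.0278), beside 0.939% of all tested genes. Spi1, the gene of PU.1, was at 2.83 ± 0.659 against 3.37 ± 0.695 CPM (-0.24, adjusted p = 0.340). Of 15 genes for ligands and partners 1 was lower, Sirpa (-0.28, adjusted p = 0.0103), whose product receives the signal of CD47 and is also abundant in neurons (median -0.14). Against IS control 2 of the 15 were lower in ID insulin, Mertk and Sirpa, beside 3.35% called among all tested genes. Mertk, a receptor gene for the uptake of dying cells, was lower in ID insulin than in IS control (-0.54, adjusted p = 0.0102) and IS insulin (-0.44, adjusted p = 0.0470), at 35.5 ± 2.33 CPM against 51.5 ± 13.5 and 48.1 ± 8.41 CPM. Of 16 further complement genes 1 was lower in ID insulin than in ID control, C3, the central component that C1q activity leads to (5.54 ± 1.64 against 9.35 ± 2.06 CPM, -0.75, adjusted p = 0.0134), and 0 were higher (median -0.09).

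Of 14 tested genes that rise in activated microglia 2 were lower in ID insulin than in ID control, the cathepsin B gene Ctsb (-0.18, adjusted p = 0.00982) and Ch25h (-0.73, adjusted p = 0.0447), and 0 were higher (median -0.09). Against IS insulin 1 of the 14 was lower, Gpnmb (-0.35, adjusted p = 0.0237), and 1 higher, the growth factor gene Igf1 (0.48, adjusted p = 0.0287), beside 2.45% of all tested genes. Gpnmb was also the single one of the 14 called in ID insulin against IS control, again lower, beside 3.35% of all tested genes. Of 9 tested inflammatory genes 0 were called in ID insulin against ID control, and the cytokine genes Il1b, Tnf and Il6 were too low to be tested. Of 6 tested genes for antigen presentation on MHC class II 3 were lower in ID insulin than in ID control, Cd74 (4.64 ± 1.19 against 9.49 ± 3.79 CPM, -1.02, adjusted p = 0.0292), RT1-Bb (adjusted p = 0.0333) and RT1-DMb (adjusted p = 0.0485), the last pair under 1 CPM on average in every group, and 0 of the 6 were called against IS insulin or IS control. Of 11 tested border macrophage genes 0 were called in ID insulin against ID control (median -0.08). Against IS insulin 1 of the 11 was lower, Siglec1 (-1.01, adjusted p = 0.0489), beside 2.45% of all tested genes. Of 5 tested blood leukocyte genes 0 were called in any comparison. In ID control against IS control and in IS insulin against IS control, 0 genes of these 9 lists were called. Among markers of other cells, 3 of 14 vessel wall genes were lower in ID insulin than in ID control (Vtn, Itm2a and Cdh5; median -0.19), as were 2 of 11 neuron genes (Nrgn and Wfs1; median -0.11). Of 11 astrocyte genes 1 was lower (Gjb6), with a median of 0.02 and 6 positive values. Of 9 oligodendrocyte genes 1 was lower (Mal), while 8 had positive values (median 0.17), and Gpr17 and Vcan rose among 7 genes of their precursors (median 0.11). Whether these shifts play a part in the values of the microglia genes was not tested.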

How the data were processed

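Counts of reads per gene for 32 libraries were deposited as 1 table without normalization. The tools named in the submitters' processing notes are FastQC, Trimmomatic (version 0.40), HISAT2 (version 2.1.0), featureCounts and edgeR, and both rat and mouse builds appear there without a role. Strand setting and treatment of reads with several matches are not given in the sources used here. The table had 0 columns of other samples, and 9663 genes had no count.

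Groups were taken from the source labels. In R (version 4.3.3), edgeR (version 4.0.16) was used with TMM scaling, filterByExpr by group and the quasi-likelihood F-test (two-sided, newer method) with 1 coefficient per group over 32 libraries (28 residual degrees of freedom). Benjamini-Hochberg adjustment ran over 15439 genes, and an adjusted p under 0.05 was called. CPM use TMM-scaled totals; log2 CPM has a prior count of 2, and the count ratio adds 0.5 to each count. The test was checked on counts simulated for ID insulin against ID control. It recovered 28 of 50 genes changed 1.25-fold and 45 of 50 changed 1.5-fold, and it called 8 unchanged genes, with 15350 genes tested. A difference of 1.25-fold or less can therefore be missed. The smallest chi-square between libraries of a group was 5.77 per gene, so none was a copy. Alternatives used DESeq2 (version 1.42.0) and limma (version 3.58.1). All 9 genes are named, and of each other list up to 3 called genes per comparison with the lowest adjusted p, with ligands, partners and uncalled genes added for their role. Calls of the lists of other cells against IS control and IS insulin and in the interaction are not listed gene by gene. The members and lists were chosen with earlier results of these data known. Second title numbers gave no pairing: over 40 pairs of libraries with the same number in different groups the median correlation of deviations was 0.00 (range -0.19 to 0.25). Promoter sequences are from RefSeq (GRCr8), matched by symbol, while the counts come from another build, so no gene coordinates are given.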

Additional observations from a re-analysis of the deposited data

Results flagged for a closer look

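Of 40 sets of values, the 9 genes and the ratio of P2ry12 to Tmem119 in each of 4 groups, 3 held a library far from the rest of its group, and chance alone gives about 1 in 20. In IS control, replicate 2 had a P2ry12 level of 29.1 CPM, and the next library was at 20.6 CPM. In ID insulin, replicate 2 had a Csf1r level of 118 CPM, and the next was at 98.5 CPM. In IS insulin, replicate 4 had a log2 ratio of P2ry12 to Tmem119 of -0.85, and the next was at -0.29. Leaving out IS control replicate 2 kept the P2ry12 call in ID insulin against IS control, and leaving out ID insulin replicate 2 brought Csf1r past the threshold against IS insulin, as given above.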

How the results depend on the processing

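Of 2349 values of the 9 genes under an alternative, 2207 kept their sign and their side of the threshold, 107 changed sign with neither value called, 23 lost a call, 12 gained one and 0 reversed a called direction. Apart from the fits without single libraries, where it was not recorded, the median log2 fold change of all genes lay between -0.02 and 0.01.

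Leaving out 1 library at a time gave 0 to 1 called members in ID insulin against ID control, 0 to 2 against IS control and 0 to 2 against IS insulin, and 0 to 0 in the 4 other tests. Over all genes it gave 323 to 806, 240 to 902 and 169 to 751 calls in these 3, 23 to 61 in ID control against IS control, 0 to 92 in IS insulin against IS control and 40 to 594 in the interaction.

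In ID insulin against ID control (1 member, 589 genes), limma voom called 2 members, title number 70 alone 0 and 232 genes, number 69 alone 150 genes, the tissue covariates 0 and 33, the compared groups alone 278 and the set without ID insulin replicates 3 and 5 358. Against IS control (2 and 517), the compared groups alone called 0 and 247, the set without replicates 3 and 5 0 and 182, the tissue covariates 0 and 6, and DESeq2 855 genes. Against IS insulin (0 and 378), DESeq2 called 1 and 723, limma voom 1, the compared groups alone 146 and the tissue covariates 83. In ID control against IS control (45 genes) DESeq2 called 114, limma voom 242 and the tissue covariates 22. In IS insulin against IS control (19) DESeq2 called 206, the compared groups alone 9, the tissue covariates 1 and a Y-linked covariate 33. In the interaction (145) DESeq2 called 423, limma voom 491, no count filter 94, number 69 alone 12 and the set without replicates 3 and 5 433. The cause of these shifts was not tested, except that smaller sets hold fewer samples.

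With the second title number as a replicate block, 1 member was called in ID insulin against IS control, since Tmem119 was at -0.28 (adjusted p = 0.0745), and 177 genes were called against IS insulin, 0 in IS insulin against IS control and 9 in the interaction. The labels do not state that these numbers pair the samples. The earlier quasi-likelihood method of edgeR was added after seeing the data. Trem2, at 99 to 211 counts per library, has the fewest counts of the 9 genes. The SE of Aif1 was wider than that of Trem2 in each contrast, at 0.19 against 0.16 in the interaction.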
